A study of Mus musculus with 12 samples.

Results

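The mGC2_NES group holds 3 mouse glioblastoma cultures, and it was set against 3 neural stem cell (NSC) cultures, 6 of the 12 arrays in the series. Members were chosen by their titles: the 3 arrays named mGC2_NES, replicates 1 to 3, and the NSC control arrays of the C/tv-a, N/tv-a and G/tv-a mouse lines. All 12 cultures came from mice without Arf, a tumour suppressor encoded at Cdkn2a (genotype Arf-/-), which also carry tv-a, the receptor of an avian retrovirus. The tumours arose after DF-1 cells, a chicken fibroblast line, releasing the virus RCAS-PDGFB-HA were injected into adult brain. This virus enters only cells that make tv-a and encodes the growth factor PDGFB with an HA tag. The promoter in front of tv-a thus decides which cells can be infected: that of Nes, a neural progenitor gene, in N/tv-a mice (mGC2_NES), that of Gfap, a gene of astrocytes and of stem cells, in G/tv-a mice (mGC1_GFAP, 3 cultures), and that of Cnp, a gene of the oligodendrocyte lineage, in C/tv-a mice (mGC3_CNP, 3 cultures). The NSC cultures were grown from the subventricular zone of adult animals, 1 per line. All were untreated cells kept attached in stem cell medium with insulin, and exact ages are not given. The labels call the tumour cultures independent without stating that they came from separate animals, and the p-values therefore measure the spread among cultures, which may be technical. Since each tumour group came from 1 line, the infected cell and the mouse line cannot be told apart.

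PDGF receptor alpha is the receptor that oligodendrocyte precursors use to divide, and PDGFB is among its ligands. Gliomas driven by PDGFB in mice are known for cells that resemble such precursors. Adult NSC of the subventricular zone share many genes with astrocytes, and most of them divide slowly in the animal and fast in culture. Cells copy their DNA with a set of proteins, the MCM helicase and its loading factors among them, whose genes are switched on together before S phase by E2F factors.

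Each array reads whole transcripts of most mouse genes by sets of probes, and values are log2 signals, so a difference of 1 is a 2-fold change. Over the 21780 probe sets with exactly 1 gene symbol, the array medians lay between 7.99 and 8.05. Each difference is a limma estimate followed by ± and its standard error, and was called at a Benjamini-Hochberg adjusted p under 0.05 over all 21780 probe sets. Probe sets of 4 spermatid genes taken as absent from these cultures (Prm2, Tnp1, Tnp2 and Odf1) read up to 7.42. Where the lower of the means compared is at or below 7.42 a difference is a lower bound on its size, written "at least", and such differences have no order. Transcripts of Y-linked genes were present in 2 of 3 mGC2_NES, 2 of 3 NSC, 2 of 3 mGC1_GFAP and 0 of 3 mGC3_CNP cultures.

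The first question was how far mGC2_NES tumour cells had moved from NSC, and in which genes. The cultures differed in 7596 of 21780 probe sets (34.9%, 7052 genes), 3623 higher in mGC2_NES (16.6%) and 3973 lower (18.2%), and 9256 passed 0.05 before adjustment. The 3 mGC2_NES arrays lay all above or all below the 3 NSC arrays in 46% of probe sets. The called difference was 2-fold or more for 941 higher and 852 lower probe sets. The corresponding shares called against the same NSC arrays were 29.3% for mGC1_GFAP and 30.3% for mGC3_CNP. With the single N/tv-a NSC culture as the control in place of all 3, 2386 probe sets were called higher and 2603 lower.

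As a distance over all 21780 probe sets (the square root of the summed squared log2 differences), mGC2_NES replicates 1 to 3 lay 106.4, 106.1 and 104.6 from the NSC arrays on average. The mGC1_GFAP arrays lay at 96.6, 99.8 and 99.8 and the mGC3_CNP arrays at 102.5, 102.2 and 96.8. All 3 mGC2_NES arrays were thus farther from NSC than any other tumour array, by 6.10 in the mean (105.7 ± 0.992, SD, n = 3, against 99.6 ± 2.54, SD, n = 6). This comparison was chosen after the distances had been seen, so no test is given for it.

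The 10 genes taken for the largest measured rises from NSC and the 10 for the largest falls are all lower bounds and have no order. Among the rises were those of Hapln1, which encodes a link protein of the hyaluronan matrix, at least 6.89 ± 0.60 (limma adjusted p = 4.98e-06), and of the neuregulin receptor Erbb3, at least 6.03 ± 0.11 (limma adjusted p = 2.04e-11). Erbb3 read 12.55, 12.48 and 12.76 in mGC2_NES and 6.44, 6.55 and 6.71 in NSC, so the groups stood far apart. Hapln1 read 11.83, 10.96 and 11.97 in mGC2_NES against 4.58, 4.68 and 4.84 in NSC. It varied widely in the other tumour cultures, from 7.70 to 9.03 in mGC1_GFAP and from 9.02 to 11.92 in mGC3_CNP. The other rises in this group were at least 5.92 for Capn6, 5.66 for the carbonic anhydrase gene Car6, 5.24 for the AMPA receptor subunit Gria4, 5.19 for the semaphorin Sema3d, 5.12 each for Vwc2l and the transcription factor gene Foxf1, 4.87 for the calcium-binding protein gene S100b and 4.83 for the proteoglycan aggrecan, Acan.

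Among the falls were those of Fndc3c1, at least -6.85, Ifitm3, an interferon-induced membrane protein gene, at least -6.20, and Itga6, the laminin receptor subunit, at least -5.79. The others were the astrocyte enzyme gene Aldh1l1 (-5.66), the GABA receptor subunit Gabrg1 (-5.63), Crip2 (-5.55), the epidermal growth factor receptor Egfr (-5.40), the annexin Anxa5 (-5.38), the gap junction gene Gja1 (-5.32) and the PACAP receptor Adcyap1r1 (-5.23), also lower bounds on the size. In 9 of these 10, Adcyap1r1 being the exception, all mGC2_NES arrays read within the range of absent genes. Of the 20 genes, Car6 and Adcyap1r1 also differed from the other tumour groups with no overlap of arrays. Adcyap1r1 read 7.18, 7.68 and 6.81 in mGC2_NES, 8.47 to 9.78 in mGC1_GFAP and 7.79 to 9.43 in mGC3_CNP, against 12.29 to 12.62 in NSC.

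The labelled cell types were checked against marker lists, beside shares of 16.6% called higher and 18.2% called lower over all probe sets. Of 16 oligodendrocyte precursor genes, 11 were higher in mGC2_NES than in NSC and 1 lower, with a median difference of 2.43 against 0.02 over all probe sets. Sox10, the transcription factor that defines the oligodendrocyte lineage, read 12.65, 12.68 and 12.63 in mGC2_NES and 8.03, 8.21 and 8.12 in the C/tv-a, N/tv-a and G/tv-a NSC cultures, a rise of 4.53 ± 0.06 (limma adjusted p = 4.67e-12). The secreted C1q-like protein gene C1ql1 rose by 4.23 ± 0.18, the precursor receptor gene Gpr17 by 4.16 ± 0.24, and Pdgfra by 3.79 ± 0.08. No member of this list was called between mGC2_NES and the other tumour groups. Only 4.19% of all probe sets were called there, so a short list without a call is not far from that share. Of 17 genes of differentiated oligodendrocytes 6 were higher and 4 lower, among them Bcas1 (3.79 ± 0.14), Gal3st1 (2.68 ± 0.10), which adds sulfate to galactolipids, and the small heat shock protein gene Cryab (-3.45 ± 0.37).

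Astrocyte genes fell in 11 of 16 cases and rose in 1, with a median of -1.52. Beside Aldh1l1 and Gja1, the glutamate transporter Slc1a3 changed by at least -4.60 ± 0.69 and the acyl-CoA synthetase gene Acsbg1 by -4.23 ± 0.38. Of 13 NSC genes, 12 were lower in mGC2_NES and 0 higher (median -1.38), among them the adhesion gene Vcam1 (at least -3.62 ± 0.09) and the patterning gene Pax6 (at least -2.34 ± 0.43). Genes of other brain cells lay low. Of 14 microglia and macrophage genes 3 had a mGC2_NES mean above 7.42, and the list's mean level was 6.55 to 6.65 over the mGC2_NES arrays and 6.58 to 6.68 over the NSC arrays. For 10 endothelial genes these ranges were 6.70 to 6.76 and 6.70 to 6.75, and for 12 pericyte and fibroblast genes 7.02 to 7.28 and 7.04 to 7.11. In a culture, fewer cells of a type and less RNA per cell cannot be told apart.

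**Figure D1:**
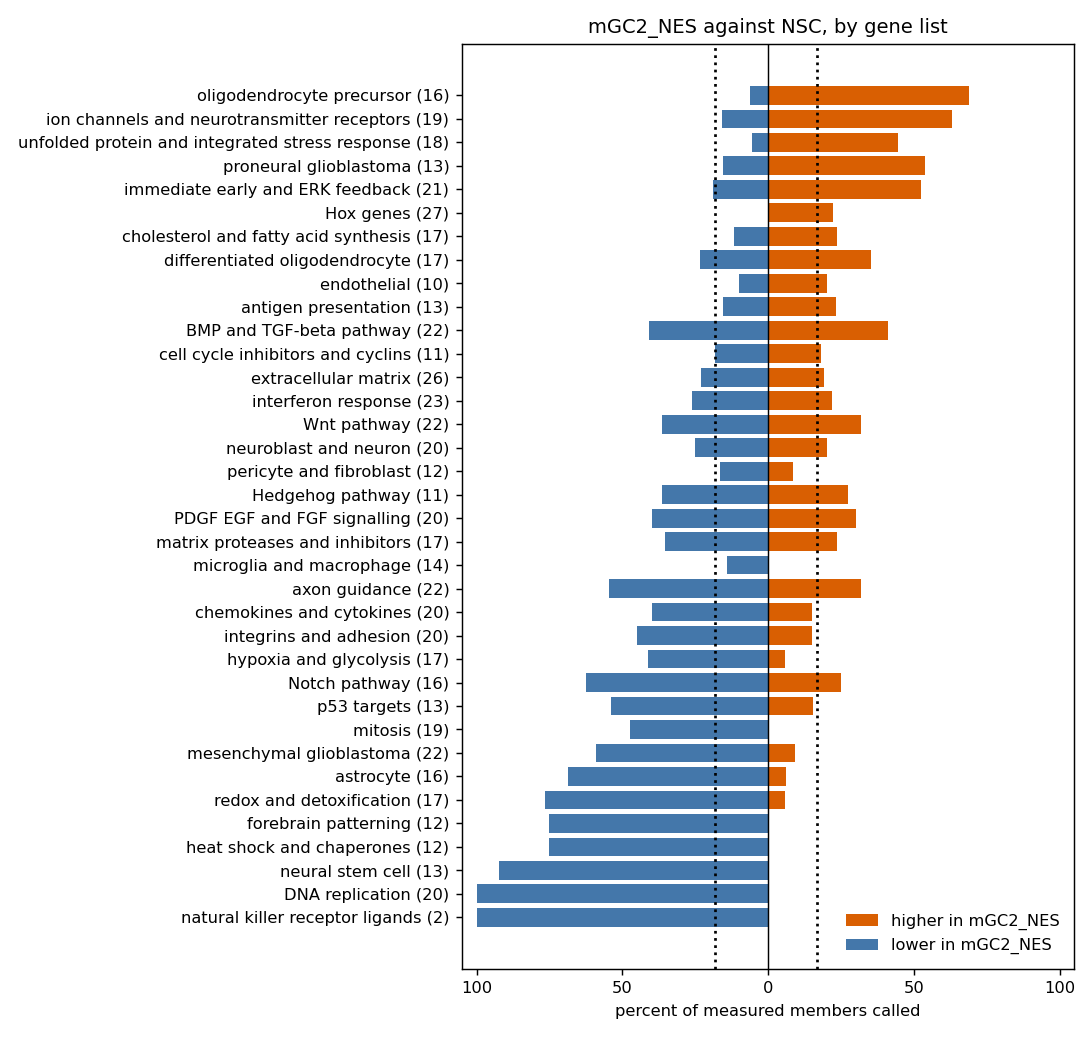
Share of measured members of each gene list called in mGC2_NES against NSC, in percent, with the number measured in parentheses; bars to the right count members higher in mGC2_NES and bars to the left members lower, ordered by the share higher minus the share lower. Dotted lines mark the shares over all probe sets, 16.6% higher and 18.2% lower. All 20 measured DNA replication genes were lower, while 11 of 16 oligodendrocyte precursor genes were higher.

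The genes behind the 3 mouse lines and the virus were read in every array. Nes, which encodes the intermediate filament nestin and whose promoter drives tv-a in the N/tv-a line, read 9.59, 9.63 and 9.67 in mGC2_NES. It was higher in the other tumour groups, at 10.47, 10.41 and 11.05 in mGC1_GFAP and 9.89, 10.32 and 10.52 in mGC3_CNP, and highest in NSC at 12.15 to 12.38. The mGC2_NES arrays were thus the lowest of all 12 for the gene their line is named after. Nes fell from NSC by 2.61 ± 0.18 (limma adjusted p = 7.53e-07) and differed from the mean of the other tumour groups by -0.81 ± 0.15 (limma adjusted p = 0.017), a call lost when any 1 mGC2_NES array was left out (-0.83 to -0.79). Gfap changed by at least -1.32 ± 0.20, and its mGC2_NES values of 6.34 to 6.71 were within the range of absent genes. For Cnp the difference from NSC was 0.39 ± 0.19 and not called (limma adjusted p = 0.138), though it was called at 0.55 without mGC2_NES replicate 1.

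Pdgfb, the mouse gene of the factor that the virus encodes, read 8.87, 8.77 and 9.01 in mGC2_NES and 7.56 to 8.01 in NSC, a rise of 1.07 ± 0.12. It read 8.61 to 9.0 in the other tumour cultures, with no overlap with NSC. Whether its probes also read the viral insert is not known here. Cdkn2a, the locus that encodes Arf and also the cell cycle inhibitor p16INK4a, read 8.39, 8.96 and 9.35 in mGC2_NES and 7.79 to 7.96 in NSC, a rise of 1.01 ± 0.21 (limma adjusted p = 0.00299). Which of its exons the probes read is not known here, and its value does not check the deletion. The neighbouring inhibitor Cdkn2b fell by 1.64 ± 0.34, and the cyclin D partner Cdk6 changed by at least -3.29 ± 0.12.

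DNA replication genes were lower in mGC2_NES than in NSC throughout. All 20 measured members of the list were called lower against NSC, where mGC1_GFAP had 5 and mGC3_CNP 17 called lower, and the median differences were -0.87, -0.19 and -0.43 in that order. The shares called lower over all probe sets were 18.2% in mGC2_NES, 15.3% in mGC1_GFAP and 15.5% in mGC3_CNP. All 3 comparisons use the same NSC arrays. Averaged over the list, mGC2_NES replicates 1 to 3 read 10.45, 10.27 and 10.25. The mGC3_CNP cultures read 10.80, 10.58 and 10.73, the mGC1_GFAP cultures 10.97, 10.89 and 10.90, and the C/tv-a, N/tv-a and G/tv-a NSC cultures 11.12, 11.19 and 11.17. No mGC2_NES array reached the lowest of the other groups.

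The direct test against the other tumour groups called 18 of the 20 genes lower and 0 higher (median -0.49), where 4.19% of all probe sets were called and 2.38% called lower. Its estimate does not involve NSC, but the NSC arrays enter the pooled spread, and leaving 1 of them out gave 16 or 17 genes. For 16 of the 20, all 3 mGC2_NES arrays lay below all 6 other tumour arrays. Such separation, above or below, held for 9.06% of all probe sets. Against mGC1_GFAP alone 19 were lower (3.42% of all probe sets), and against mGC3_CNP alone 3 were lower (0.193%): Pola1, Cdt1 and Mcm10. Leaving out mGC2_NES replicate 2, or replicate 3, brought the count of 18 down to 8. With each tumour group measured from the NSC culture of its own line, 0 were called with a median of -0.51, and 19 of 20 were called lower than the N/tv-a NSC culture.

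By role, the licensing factor Cdt1, which loads the helicase, read 9.71, 9.87 and 9.50 in mGC2_NES, 10.69, 10.60 and 10.50 in mGC1_GFAP, 10.27, 10.11 and 10.34 in mGC3_CNP and 10.76 to 10.89 in NSC. Its difference from NSC was -1.13 ± 0.10 and from the other tumour groups -0.72 ± 0.09 (limma adjusted p = 0.00272). Pola1, the catalytic subunit of the polymerase that starts new strands, read 8.75, 8.77 and 8.73 in mGC2_NES, 9.22 to 9.63 in the other tumour cultures and 9.63 to 9.82 in NSC. The spread within mGC2_NES was small beside its distance of -0.69 ± 0.07 from the other tumour groups (limma adjusted p = 0.00116). Among helicase genes, Mcm6 differed from the other tumour groups by -0.59 ± 0.09, Mcm5 by -0.49 ± 0.06 and the helicase-activating factor Mcm10 by -0.66 ± 0.08. Gins1, a subunit of the active helicase complex, differed by -0.72 ± 0.12, the clamp loader subunit Rfc4 by -0.60 ± 0.09 and the sliding clamp Pcna by -0.28 ± 0.06. Rrm2, a subunit of the enzyme that makes deoxynucleotides, showed the largest difference from NSC in the list, -1.46 ± 0.12. E2f1, a transcription factor of the family named above, fell from NSC by 0.96 ± 0.09 and differed from the other tumour groups by -0.42 ± 0.08. Without mGC2_NES replicate 2 or without replicate 3 the calls of E2f1 and Pcna against the other tumour groups were lost, that of Gins1 without replicate 2, while Cdt1, Pola1, Mcm5, Mcm6, Mcm10 and Rfc4 remained called whichever array was left out.

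The promoters of the list genes were searched for the E2F-type letters TTTGGCGC or TTTCGCGC on either strand in the 250 bases before the start (RefSeq, GRCm38.p6). The letters were found in 4 of the 17 list genes with a promoter entry, and in 3 of 15 that were lower than in the other tumour groups, against 0.759% of all 27025 genes and 0.654% of all windows. The other gene with the letters, Rfc3, was not among those lower. Replication genes are known to be switched on by E2F factors, so this share follows from the choice of list. Why the genes were lower was not tested. The 3 promoters are printed 5′ to 3′ on the gene's strand with matches in capitals. Pola1 lies on the minus strand at chrX:93632156-93632405 with 1 match, Mcm6 on the minus strand at chr1:128359706-128359955 with 3, and Mcm5 on the plus strand at chr8:75109259-75109508 with 2 that overlap. A match describes these letters and not binding, which was not measured.
Pola1: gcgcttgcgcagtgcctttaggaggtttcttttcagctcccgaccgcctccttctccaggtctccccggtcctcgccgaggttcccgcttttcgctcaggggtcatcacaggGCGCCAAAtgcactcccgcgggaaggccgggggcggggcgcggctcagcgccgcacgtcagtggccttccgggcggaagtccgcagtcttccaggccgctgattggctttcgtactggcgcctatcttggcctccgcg
Mcm6: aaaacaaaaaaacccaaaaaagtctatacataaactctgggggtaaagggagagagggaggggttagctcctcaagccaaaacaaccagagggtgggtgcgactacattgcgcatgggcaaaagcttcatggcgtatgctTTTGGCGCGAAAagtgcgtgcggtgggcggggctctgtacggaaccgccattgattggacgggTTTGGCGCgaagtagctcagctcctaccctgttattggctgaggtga
Mcm5: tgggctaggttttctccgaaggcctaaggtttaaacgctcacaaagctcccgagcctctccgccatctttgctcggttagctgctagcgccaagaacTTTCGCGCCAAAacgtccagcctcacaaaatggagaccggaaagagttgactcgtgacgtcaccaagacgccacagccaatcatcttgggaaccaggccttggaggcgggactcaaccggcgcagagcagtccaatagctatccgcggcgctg

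**Figure D2:**
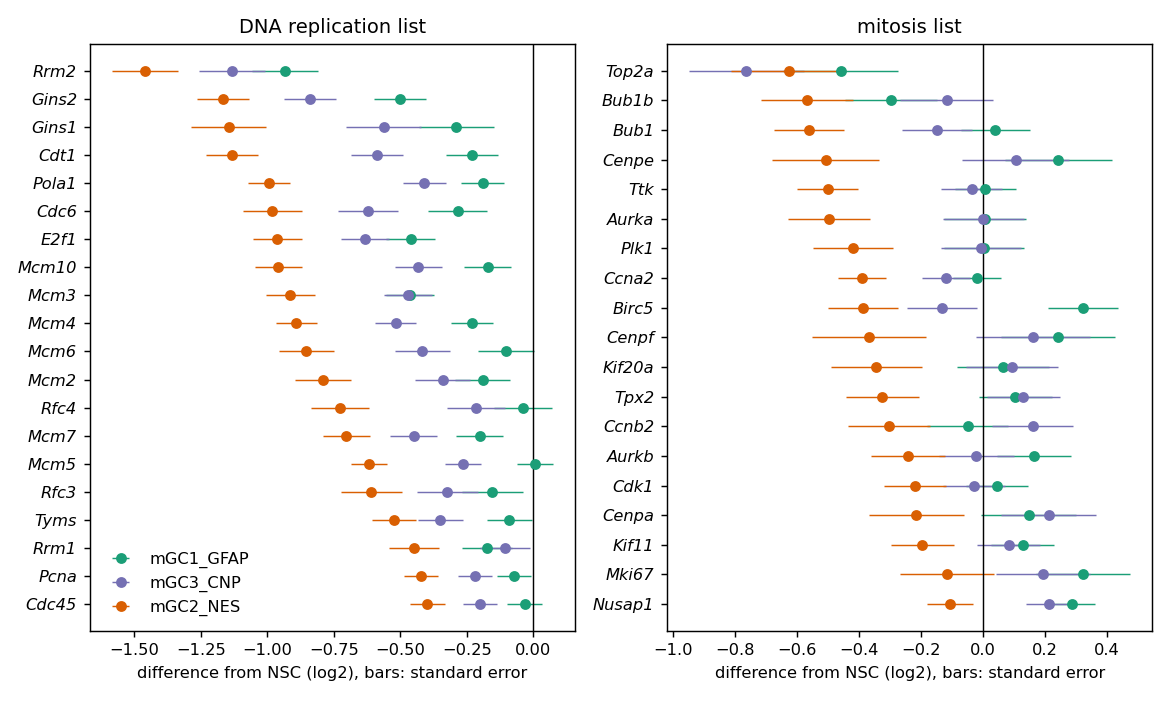
Difference from NSC on the log2 scale for each measured DNA replication and mitosis gene in the 3 tumour groups; points are limma estimates and bars their standard errors, and all 3 groups share the 3 NSC arrays. In the replication panel the mGC2_NES point is the lowest in all 20 rows. In the mitosis panel the mGC1_GFAP and mGC3_CNP points lie near 0 for most genes, with list medians of 0.07 and 0.00, and the mGC2_NES median is -0.37.

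Genes of mitosis moved the same way to a smaller extent. Of 19 measured, 9 were lower in mGC2_NES than in NSC and 0 higher (median -0.37), against 0 lower and 1 higher in mGC1_GFAP and 1 lower in mGC3_CNP. Called lower over all probe sets were 18.2% in mGC2_NES, 15.3% in mGC1_GFAP and 15.5% in mGC3_CNP. Both means of Top2a, one of the 9, were at or below 7.42. Its call against NSC was lost without the C/tv-a or G/tv-a NSC culture or mGC2_NES replicate 2 or 3 (-0.62 to -0.50). That of Cenpe was lost without either of these NSC cultures or replicate 2 (-0.45 to -0.29). Without the G/tv-a NSC culture or replicate 2, Birc5 was not called (-0.33 to -0.28). Against the other tumour groups 8 of the 19 were lower, where 2.38% of all probe sets were. Among the 8 were the spindle motor Cenpe (-0.68), the checkpoint kinase genes Bub1 (-0.51) and Ttk (-0.49), the kinase Aurka (-0.50) and Birc5 (-0.48), a chromosome passenger protein gene. The others were Tpx2, Nusap1 and the cyclin Ccna2, at -0.44 to -0.32. Mki67, the gene of the proliferation marker Ki-67 and named after its values were seen, read 12.06, 11.79 and 12.20 in mGC2_NES and 11.97 to 12.24 in NSC, with no difference called (-0.11 ± 0.15, limma adjusted p = 0.621). The mitosis count rests on single arrays: it was 0 without mGC2_NES replicate 2 and 0 without replicate 3, 4 without mGC1_GFAP replicate 1, 5 without mGC1_GFAP replicate 3 and 4 without mGC3_CNP replicate 3. The N/tv-a NSC culture itself read lower over this list, 10.93 against 11.18 and 11.17 in the other NSC cultures. With own-line NSC cultures as controls the list's median difference from the other tumour groups was -0.14 in place of -0.40. From the N/tv-a NSC culture alone, the mGC2_NES median difference was -0.18 in place of -0.37.

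The second question was which genes changed from NSC more, less or in the opposite direction in mGC2_NES compared with the other tumour groups. Since the NSC mean cancels, the difference between these changes equals mGC2_NES minus the mean of mGC1_GFAP and mGC3_CNP, and that was the value tested. It was called for 913 probe sets (4.19%, 858 genes), 394 higher and 519 lower in mGC2_NES, and 4001 passed 0.05 before adjustment. The called difference was 2-fold or more for 45 higher and 34 lower. Most of the contrast lay with mGC1_GFAP: 1435 probe sets differed between mGC2_NES and mGC1_GFAP (6.59%, 3.17% higher), and 96 between mGC2_NES and mGC3_CNP (0.441%). The count of 913 became 303 without mGC2_NES replicate 2, 326 without replicate 3, 519 without mGC3_CNP replicate 3, 548 without mGC1_GFAP replicate 1 and 604 without mGC1_GFAP replicate 3. Without mGC2_NES replicate 1 the 394 higher became 220.

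In 759 of the 913 (719 genes, 3.48% of all tested) the mGC2_NES arrays lay all above or all below the 6 other tumour arrays, and such separation, called or not, held for 9.06% of all probe sets. These 759 were sorted by their changes from NSC. In 566 (530 genes) the change was called in mGC2_NES and larger there, in 152 (149 genes) it was called in the other groups and smaller in mGC2_NES, and in 5 it was called on both sides with opposite signs. The remaining 36 matched none of these. Of the 566, the change was called on both sides in 274 and in mGC2_NES but not in the others' mean in 292. At least 2-fold separation was seen in 43 of the 566 and 17 of the 152. Leaving out mGC2_NES replicate 2 gave 238 and 53, leaving out replicate 3 gave 245 and 57, leaving out mGC3_CNP replicate 3 gave 376 and 88, and leaving out mGC1_GFAP replicate 1 gave 93 for the smaller class. In 54 of the 759 the means of mGC2_NES, of NSC and of the other tumour groups were all at or below 7.42, and there presence is not shown.

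The opposite class held Adcy2, Sv2c, Cenpq, Parpbp and Asah1. Adcy2, an adenylyl cyclase gene whose enzyme makes cyclic AMP, read 10.97, 10.95 and 10.77 in mGC2_NES and 7.49, 8.81 and 7.90 in the C/tv-a, N/tv-a and G/tv-a NSC cultures. It read 6.32, 7.14 and 6.65 in mGC1_GFAP and 6.19, 7.67 and 7.44 in mGC3_CNP. The mGC2_NES cultures were thus the highest of all 12, and 4 of the 6 other tumour cultures read within the range of absent genes. Adcy2 rose from NSC by 2.83 ± 0.39 (limma adjusted p = 1.68e-04), while the differences were at least -1.36 in mGC1_GFAP (limma adjusted p = 0.021) and at least -0.97 in mGC3_CNP, the latter not called on its own (limma adjusted p = 0.087). The class rests on the mean of both groups, which for Adcy2 differed from NSC by at least -1.17 (limma adjusted p = 0.0193), and each of the 5 genes was called in 1 of them alone. Between mGC2_NES and the other tumour groups it differed by at least 3.99 ± 0.34 (limma adjusted p = 6.09e-04).

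Sv2c, a synaptic vesicle protein gene, read 8.09, 8.53 and 8.0 in mGC2_NES, 8.74 to 9.57 in NSC and 9.27 to 10.63 in the other tumour cultures. It fell from NSC by 0.98 ± 0.30 and differed from the other tumour groups by -2.03 ± 0.26 (limma adjusted p = 0.00417). Cenpq, a centromere protein gene, and Parpbp, which encodes a regulator of recombination, also had their lowest group mean in mGC2_NES. Their differences from the other tumour groups were -0.95 ± 0.11 and -0.88 ± 0.14 and from NSC -0.53 and -0.48. For Parpbp the N/tv-a NSC culture read 8.65, below mGC2_NES replicate 1 at 8.68. Asah1, the lysosomal acid ceramidase gene, read 11.91, 11.69 and 11.90 in mGC2_NES and 10.85 to 11.28 in the other tumour cultures, a difference of 0.75 ± 0.12 (limma adjusted p = 0.00878). The N/tv-a NSC culture read 11.76 for Asah1, within the mGC2_NES range. Calls against NSC were lost without the C/tv-a or the G/tv-a NSC culture for Sv2c, Parpbp and Asah1, without mGC2_NES replicate 1 for Sv2c and Asah1, without replicate 2 for Parpbp and without replicate 3 for all 3. The values then ranged from -0.95 to -0.79 for Sv2c, -0.46 to -0.34 for Parpbp and 0.26 to 0.39 for Asah1. Over 19 other settings Adcy2 and Cenpq stayed in the opposite class in 17, Sv2c in 13, Parpbp in 8 and Asah1 in 6. The class held 1 gene without the C/tv-a NSC culture, 8 without the G/tv-a NSC culture, 3 without mGC2_NES replicate 2 and 3 without mGC3_CNP replicate 3.

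Among genes that changed more in mGC2_NES, 5 of the 8 named were higher there. Penk, the precursor of enkephalin peptides, read 11.10, 10.14 and 10.79 in mGC2_NES, 6.18 to 7.93 in mGC1_GFAP and 7.35 to 8.81 in mGC3_CNP. In NSC it read 6.59 and 6.60 in the C/tv-a and G/tv-a cultures and 8.34 in the N/tv-a culture. It rose from NSC by at least 3.50 ± 0.56 and exceeded the other tumour groups by 3.03 ± 0.48 (limma adjusted p = 0.0089). Faim2, which encodes an inhibitor of Fas-mediated cell death, was higher than in the other tumour groups by 2.58 ± 0.45, with values of 10.01 to 11.22 against 7.24 to 9.20. The membrane protein gene Tmem100 was higher by 2.53 ± 0.50, and mGC3_CNP replicate 1, at 10.55, came close to the lowest mGC2_NES array at 10.69. Renbp, the gene of an N-acetylglucosamine epimerase also known as renin-binding protein, was higher by at least 2.27 ± 0.44. Without mGC2_NES replicate 3 the Faim2 call was lost (2.35), without replicate 1 or 2 that of Renbp (2.12 to 2.25), and without any 1 of the 3 that of Tmem100 (2.36 to 2.64).

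Rps6ka6, a kinase gene of the ERK pathway, was lower, with a difference of at least -2.23 ± 0.38 and values of 6.78, 6.38 and 8.69 in mGC2_NES against 9.16 to 9.77 in the other tumour cultures and 9.90 to 10.08 in NSC. Zfp991 was also lower (at least -2.62 ± 0.40), though it belongs to a large zinc finger family whose similar copies probes may not separate. Other differences of this class were in Trim13, a ubiquitin ligase gene (at least -4.84 ± 0.74), and the transcript AA388235 (at least 4.20 ± 0.70), and in both the NSC cultures differed by line. Trim13 read 4.61, 5.03 and 4.94 in mGC2_NES and 5.32 in the N/tv-a NSC culture, against 9.34 to 10.09 in the other tumour cultures and 9.54 and 9.60 in the other NSC cultures. AA388235 read 8.75, 9.54 and 9.24 in mGC2_NES and 8.94 in the N/tv-a NSC culture, against 4.75 to 5.12 and 4.87 and 4.98. For both genes all 4 N/tv-a cultures, tumour and NSC alike, stood apart from all 8 cultures of the other lines. Without mGC2_NES replicate 2, Rps6ka6 (-1.78) and AA388235 (4.01) were no longer called against the other tumour groups, and AA388235 was not called against NSC without the C/tv-a (2.21) or the G/tv-a (2.27) NSC culture.

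In the class that changed less, Epb41l3 had the smallest p. It encodes a membrane skeleton protein of the band 4.1 family and read 8.34, 8.06 and 8.15 in mGC2_NES, 10.17 to 10.72 in mGC1_GFAP, 10.13 to 10.36 in mGC3_CNP and 6.64 to 7.27 in NSC. Its rise from NSC was at least 1.31 ± 0.17 in mGC2_NES, where it was at least 3.6 in mGC1_GFAP and 3.37 in mGC3_CNP. The difference from the other tumour groups was -2.17 ± 0.15 (limma adjusted p = 1.38e-04), and with own-line NSC cultures it was -2.77 and still called (limma adjusted p = 0.00173). No other of the 21 genes named from these classes was called with own-line NSC cultures.

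The protease gene Bace2 read 8.61, 9.01 and 7.88 in mGC2_NES, 7.60 to 8.22 in NSC and 6.55 to 6.91 in the other tumour cultures, which is within the range of absent genes. Its difference from NSC was 0.57 ± 0.24 and not called (limma adjusted p = 0.0873), though it was called at 0.88 without mGC2_NES replicate 3. Its difference from the other tumour groups was at least 1.81 ± 0.21 (limma adjusted p = 0.0025). Plcd4, a phospholipase C gene, fell from NSC by 1.81 ± 0.29 in mGC2_NES, against at least -3.81 in mGC1_GFAP and -2.99 in mGC3_CNP. Runx1, a transcription factor gene of blood development and of the mesenchymal glioblastoma list, read 10.71, 9.39 and 9.98 in mGC2_NES, 7.93 to 9.06 in the other tumour cultures and 8.66 to 10.19 in NSC. Its difference from the other tumour groups was 1.51 ± 0.37. Pip5k1b, a lipid kinase gene, was higher by at least 1.36 ± 0.31, and Zfp57, whose protein maintains imprinting, by 1.24 ± 0.26. Tmem267 was lower (-1.27 ± 0.25), where the N/tv-a NSC culture differed by -1.07 from the other NSC cultures and the own-line difference was -0.19. Also lower was Zfp459, another zinc finger family gene (at least -1.68 ± 0.31). For Zfp459 the N/tv-a NSC culture read 5.47 against 7.05 and 7.33 in the other NSC cultures, and its own-line difference was 0.04. Calls in this class depended on single arrays: Runx1 was lost in 8 of the 9 fits that left out 1 tumour array (1.17 to 1.83), all but that without mGC3_CNP replicate 1. Pip5k1b was lost without mGC1_GFAP replicate 2 or 3 or any mGC2_NES array (1.24 to 1.41) and Zfp57 without any mGC2_NES array (1.16 to 1.34). Tmem267 was lost without mGC2_NES replicate 1 or 3 (-1.29 to -1.07), and Zfp459 without replicate 2 or 3 (-1.78 to -1.59).

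**Figure D3:**
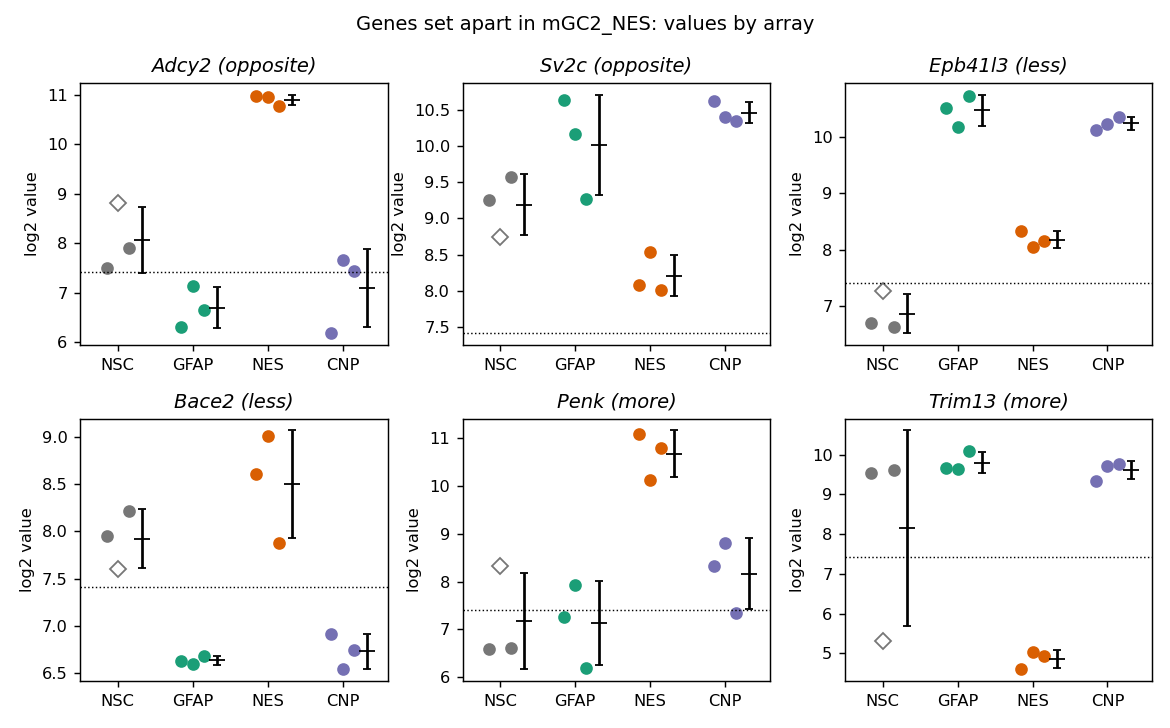
Log2 values of 6 genes in every array, by group (NSC and the mGC1_GFAP, mGC2_NES and mGC3_CNP tumour groups, written GFAP, NES and CNP); the open diamond is the N/tv-a NSC culture, black bars are the mean ± SD of 3 arrays and the dotted line is the highest reading of an absent gene, 7.42. The mGC2_NES arrays do not overlap with any other tumour array in these genes, and in Trim13 the N/tv-a NSC culture lies with them.

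Mouse lines can differ in genes that have no part in the tumour, so each gene's difference was set beside that between NSC cultures of the lines. The N/tv-a NSC culture departed from the mean of the other NSC cultures in the direction of the tumour difference in 483 of the 759 probe sets (63.6%), against 11471 of all 21780 (52.7%). In 128 of the 759 its departure was at least 0.5 of the tumour difference, 79 of them in the class that changed more and 35 in the class that changed less. There is 1 NSC culture per line, so a line's own value has no replicate. With each tumour group compared with the NSC culture of its own line, 95 probe sets were called in place of 913, of which 9 were among the 913. The lone NSC array was then assumed to vary like the tumour arrays, and the spread among NSC cultures no longer entered the error. A gene's error could thus widen or narrow, and its estimate changed as well. Of the 759, 31 lay on the X chromosome (4.08%, against 3.62% of all tested).

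**Figure D4:**
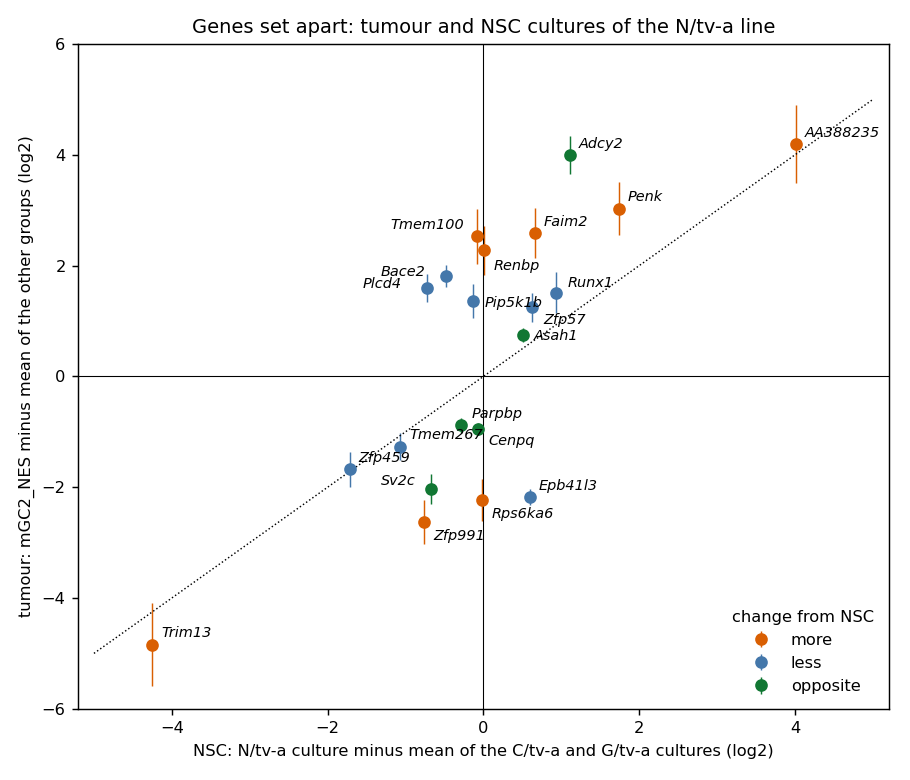
For the 21 named genes of the classes more, less and opposite, the tumour difference (mGC2_NES minus the mean of the other tumour groups, log2, bars: limma standard error) against the difference of the N/tv-a NSC culture from the mean of the C/tv-a and G/tv-a NSC cultures (log2, 1 culture per line). On the dotted line both are equal: Trim13 and AA388235 lie close to it, while Adcy2 (3.99), Rps6ka6 (-2.23) and Epb41l3 (-2.17) lie far from it.

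Among signalling genes, the ligand Tgfb2 was set apart from both other tumour groups. Tgfb2, a TGF-beta ligand, read 11.07, 11.08 and 10.90 in mGC2_NES, 9.17, 8.63 and 8.75 in mGC1_GFAP, 9.65, 10.21 and 9.78 in mGC3_CNP and 9.46 to 9.94 in NSC. It rose from NSC by 1.28 ± 0.17 and exceeded the other tumour groups by 1.65 ± 0.15 (limma adjusted p = 8.07e-04). Of 22 measured BMP and TGF-beta genes 9 were higher and 9 lower than in NSC, against 16.6% higher and 18.2% lower over all probe sets. Among these genes were the ligand Bmp7 (3.13 ± 0.16), the receptor Bmpr1b (at least -3.24 ± 0.11) and the target Id1 (-2.06 ± 0.18). Boc, a coreceptor for Hedgehog ligands, rose by 2.13 ± 0.23 and exceeded the other tumour groups by 1.17 ± 0.20 (limma adjusted p = 0.0107), and the coreceptor Gas1 exceeded them by 0.44 ± 0.09, a call lost without mGC2_NES replicate 1 or 2 (0.38 to 0.43). The Hedgehog list had 3 of 11 higher and 4 lower, with the transducer Smo at -1.12 ± 0.13.

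In the Wnt list, 7 of 22 genes were higher and 8 lower than in NSC, against 16.6% higher and 18.2% lower over all probe sets. The secreted Wnt inhibitor gene Wif1 rose by at least 4.22 ± 0.38, the transcription factor Lef1 by at least 3.47 ± 0.26 and the secreted modulator Sfrp1 by 2.89 ± 0.33. Sfrp1 read 12.26, 12.21 and 12.60 in mGC2_NES, 8.52 to 9.76 in mGC1_GFAP and 11.30 to 12.40 in mGC3_CNP, and its difference from the other tumour groups was 1.83 ± 0.29. It was called against mGC1_GFAP (limma adjusted p = 0.00174) and not against mGC3_CNP (limma adjusted p = 0.536), whose arrays overlapped with mGC2_NES. Lgr5, a stem cell receptor for R-spondins, was lower than in the other tumour groups (-1.13 ± 0.24), a call lost without any mGC2_NES array, mGC1_GFAP replicate 1 or mGC3_CNP replicate 3 (-1.21 to -0.99). Notch genes were lower in 10 of 16 cases and higher in 4, with the glycosyltransferase Lfng at -4.91 ± 0.13 and the target Hey2 at 3.24 ± 0.41, both lower bounds on the size. None of the Notch list was called between mGC2_NES and the other tumour groups, not far from the 4.19% over all probe sets in so short a list. Of 20 PDGF, EGF and FGF genes 6 were higher and 8 lower, and the ligand Pdgfc differed from the other tumour groups by -0.51.

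Interferon and antigen presentation genes were called in both directions, at shares not far from the 16.6% higher and 18.2% lower over all probe sets. Of 23 interferon response genes 5 were higher and 6 lower than in NSC. The antiviral GTPase gene Mx2 read 7.11, 7.29 and 7.0 in mGC2_NES, 5.16 to 5.28 in NSC and 5.45 to 6.73 in the other tumour cultures, called in each comparison although all values are within the range of absent genes. Stat2, which carries the interferon signal to the nucleus, rose by 0.70 ± 0.08 and exceeded the other tumour groups by 0.38 ± 0.07 (limma adjusted p = 0.0177), and Ifit3 exceeded them by 0.47. Mx2 and Stat2 were not called against the other groups without mGC2_NES replicate 2 (0.91 and 0.41), nor was Ifit3 without mGC2_NES replicate 2 or 3, mGC1_GFAP replicate 3 or mGC3_CNP replicate 3 (0.36 to 0.48). Of 13 antigen presentation genes 3 were higher and 2 lower, and H2-Ab1, an MHC class II gene, exceeded the other tumour groups by 0.90 ± 0.10 at values of 6.56 to 6.99, also within the range of absent genes. Tapbp, which helps load peptides on MHC class I, exceeded them by 0.44, a call lost without any 1 mGC2_NES array (0.41 to 0.46). In the list of 20 chemokine and cytokine genes 3 were higher and 8 lower than in NSC, among them the ligand of Kit, Kitl (-3.20 ± 0.19), which also differed from the other tumour groups (-0.71 ± 0.17). That call was lost without any 1 mGC1_GFAP or mGC2_NES array (-0.80 to -0.55).

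Genes of cell stress moved in different directions. The shares called over all probe sets were 16.6% higher and 18.2% lower than in NSC. Heat shock and chaperone genes were lower than in NSC in 9 of 12 cases and higher in 0 (median -0.46), among them the mitochondrial chaperone Hspd1 (-0.84 ± 0.09) and its partner Hspe1 (-0.47 ± 0.06). Hspe1 and Dnajb1, a cochaperone gene, were also lower than in the other tumour groups, with differences of -0.21 and -0.40. The Hspe1 call was lost whichever tumour array was left out (-0.24 to -0.16), and that of Dnajb1 without mGC2_NES replicate 2 or 3 (-0.36 to -0.34). Of 18 genes of the unfolded protein and integrated stress responses 8 were higher than in NSC and 1 lower (median 0.31), among them Chac1 (1.33 ± 0.23), Herpud1 (0.86 ± 0.11) and the transcription factor Ddit3 (0.73 ± 0.12). Xbp1, the transcription factor of the unfolded protein response, rose less in mGC2_NES: it read 10.82, 10.60 and 10.71 there, 11.05 to 11.30 in the other tumour cultures and 10.08 to 10.49 in NSC, and its difference from the other tumour groups was -0.45 ± 0.09 (limma adjusted p = 0.0239), lost without mGC2_NES replicate 2 or 3 or mGC1_GFAP replicate 1 (-0.44 to -0.39). Genes of redox control and detoxification were lower than in NSC in 13 of 17 cases and higher in 1 (median -0.85), among them the glutathione transferases Gsta4 (at least -4.61 ± 0.16) and Gstm1 (-3.68 ± 0.25). Gpx8, a peroxidase of the endoplasmic reticulum, was lower than in NSC by -0.78 ± 0.23, a call lost without the N/tv-a or G/tv-a NSC culture or mGC2_NES replicate 2 or 3 (-0.79 to -0.67). It exceeded the other tumour groups by 1.29 ± 0.20, with overlap between mGC2_NES and mGC3_CNP arrays.

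Of 22 genes of the mesenchymal glioblastoma list, 13 were lower and 2 higher than in NSC (median -1.39), with S100a11 (-4.83 ± 0.33), the galectin Lgals1 (-3.59 ± 0.51) and the hyaluronan receptor Cd44 (-2.91 ± 0.27) among the lower. Chil1, a secreted chitinase-like protein gene of the same list, was an exception: it read 10.53, 10.57 and 10.81 in mGC2_NES, 8.74 to 9.28 in mGC1_GFAP, 9.87 to 10.42 in mGC3_CNP and 6.85 to 7.0 in NSC. It exceeded the other tumour groups by 1.07 ± 0.14 (limma adjusted p = 0.00406). Proneural genes were higher in 7 of 13 cases and lower in 2, among them the transcription factor Nkx2-2 (2.29 ± 0.20). Forebrain patterning genes were lower in 9 of 12 cases, with Dlx2 (-1.84 ± 0.20) and Emx2 (-1.84 ± 0.29), and 6 of 27 Hox genes were higher, among them Hoxa5 (at least 2.50 ± 0.12). Over all probe sets 16.6% were called higher and 18.2% lower, and the Hox share of higher genes was not far from this. None of the proneural, forebrain or Hox genes was called between mGC2_NES and the other tumour groups. As 4.19% of all probe sets were called there, a short list without a call is not far from that share.

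By chromosome, the median difference from NSC was between -0.02 and 0.03 except on chromosome 15, where it was 0.11 over 831 probe sets. On chromosome 15 it was 0.12, 0.17 and 0.08 in mGC2_NES replicates 1 to 3, and 0.13 in mGC1_GFAP and 0.09 in mGC3_CNP. DNA copy number was not measured.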

How the data were processed

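Per the submitters' processing notes, the authors used Affymetrix Expression Console and RMA; the deposited values are log2 signals per probe set. Software version, annotation release and genome build are not given in the sources. RMA brings all arrays to a common distribution, which hides any shift that most genes share. Arrays hold no read depth, and their number limits precision. The table held 28270 probe sets; 23397 were in the platform annotation of 2016, and the 21780 with exactly 1 symbol (19934 symbols) were tested. No symbol needed updating against RefSeq GRCm38.p6, which 91 identifiers did not match. Values were used as deposited.

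One model with 4 groups was fitted to all 12 arrays (limma 3.58.1, R 4.3.3, lmFit and eBayes, two-sided, Benjamini-Hochberg over 21780), after a test on simulated data. Genes were named by rule: the 10 largest rises and falls from NSC, the 8 largest differences per class, 6 fixed genes, and members of 38 gene lists (580 of 623 genes measured). Predicted genes were counted, not named. Members and lists were chosen with earlier results of these data known. No array duplicated another (closest pair at a distance of 32.3). Alternatives were a variance trend, quantile scaling, median centring, a filter on low signal, fewer arrays, own-line NSC controls, a replicate block and leaving out each array.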

Additional observations from a re-analysis of the deposited data

Results flagged for a closer look

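The effect of tumour against NSC differed between mGC2_NES and the mean of mGC1_GFAP and mGC3_CNP, by the limma test of the difference itself at a Benjamini-Hochberg adjusted p under 0.05, in 913 probe sets. By the same test 18 of 20 DNA replication genes and 8 of 19 mitosis genes were lower in mGC2_NES, where 2.38% of all probe sets were. Single genes picked out by that test, as mGC2_NES minus the other tumour groups on the log2 scale, were in the opposite class Adcy2 (3.99), Sv2c (-2.03), Cenpq (-0.95), Parpbp (-0.88) and Asah1 (0.75). In the class that changed more they were Trim13 (-4.84), AA388235 (4.20), Penk (3.03), Zfp991 (-2.62), Faim2 (2.58), Tmem100 (2.53), Renbp (2.27) and Rps6ka6 (-2.23). In the class that changed less they were Epb41l3 (-2.17), Bace2 (1.81), Zfp459 (-1.68), Plcd4 (1.59), Runx1 (1.51), Pip5k1b (1.36), Tmem267 (-1.27) and Zfp57 (1.24). The same test singled out members of the gene lists. The replication genes were Cdc45 (-0.28), Cdc6 (-0.53), Cdt1 (-0.72), E2f1 (-0.42), Gins1 (-0.72), Gins2 (-0.50), Mcm10 (-0.66), Mcm2 (-0.52), Mcm3 (-0.45), Mcm4 (-0.52), Mcm5 (-0.49), Mcm6 (-0.59), Mcm7 (-0.38), Pcna (-0.28), Pola1 (-0.69), Rfc4 (-0.60), Rrm2 (-0.43) and Tyms (-0.30), and the mitosis genes Aurka (-0.50), Birc5 (-0.48), Bub1 (-0.51), Ccna2 (-0.32), Cenpe (-0.68), Nusap1 (-0.36), Tpx2 (-0.44) and Ttk (-0.49). Higher members of other lists were Boc (1.17), Chil1 (1.07), Cx3cl1 (0.57), Cxcl12 (0.75), Fzd8 (0.42), Gas1 (0.44), Gpx8 (1.29), H2-Ab1 (0.90), Ifit3 (0.47), Insig1 (0.33), Mx2 (0.98), Sfrp1 (1.83), Sparc (0.69), Stat2 (0.38), Tapbp (0.44), Tgfb1 (0.39) and Tgfb2 (1.65), and lower ones Dnajb1 (-0.40), Grik1 (-0.60), Hsp90b1 (-0.27), Hspe1 (-0.21), Kitl (-0.71), Lgr5 (-1.13), Nr2e1 (-0.58), Pdgfc (-0.51) and Xbp1 (-0.45). Several of these calls were lost in 5 or more of the 9 fits that left out 1 tumour array: in 8 for Cx3cl1 (0.51 to 0.67) and Tyms (-0.33 to -0.22), in 7 for Hsp90b1 (-0.31 to -0.24), Rrm2 (-0.46 to -0.31) and Tpx2 (-0.45 to -0.32), in 6 for Aurka (-0.50 to -0.37) and in 5 for Fzd8 (0.33 to 0.46) and Cenpe (-0.76 to -0.47). The call of Tgfb1 was lost without mGC2_NES replicate 1 or 3 (0.35 to 0.36), and that of Nr2e1 without replicate 3 (-0.60). Runx1 and Nes belong to such lists too, and Nes differed by -0.81. In Trim13, AA388235, Zfp459 and Tmem267 the N/tv-a NSC culture differed from the other NSC cultures by an amount close to the tumour difference. What sets these genes apart was not tested.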

How the results depend on the processing

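A variance trend, quantile scaling, median centring and a filter on low signal kept every count within 1.5 times, except the opposite class, with 9 probe sets after centring and 10 after filtering in place of 5. Own-line NSC cultures as controls changed most. They gave 2386 higher and 2603 lower probe sets against NSC and 35 higher and 60 lower against the other tumour groups. Then 15 probe sets changed more, 12 less and 1 oppositely, with 0 replication and 0 mitosis genes lower than in the other groups, and the Zfp459 difference turned to 0.0376. Leaving out 1 array at a time, called counts were 3116 to 3329 higher and 3380 to 3729 lower against NSC, and 155 to 440 higher and 135 to 488 lower against the other tumour groups. Class sizes were 238 to 617 (more), 53 to 174 (less) and 1 to 8 (opposite). Lower replication genes numbered 8 to 19 against the other groups and 20 to 20 against NSC, and mitosis genes 0 to 12. Deviations of same-numbered cultures correlated at 0.00 to 0.25 over 9 pairs, 5 over 0.1, among them all 3 of mGC2_NES with mGC3_CNP. Not every pair passed 0.1, so the numbers were not taken to pair the cultures. With the replicate number as a block the counts were 400 higher and 544 lower, with 514 more, 156 less, 5 opposite, 16 replication and 9 mitosis genes. Of 3641 values of named genes under these settings, 3272 kept direction and call, 356 lost the call (223 with 1 array left out, 103 with own-line controls), 12 gained it and 1 turned. A signal at or below 7.42 limits what can be seen.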

Other observations

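Genes that answer receptor signalling, and genes of ion channels, were often higher in mGC2_NES than in NSC. The shares called over all probe sets were 16.6% higher and 18.2% lower. Of 21 immediate early and ERK feedback genes 11 were higher and 4 lower (median 0.38), among them the immediate early genes Nr4a1 (2.42 ± 0.15), Egr2 (1.94 ± 0.18) and Fos (1.28 ± 0.22), with Fosl1 among the lower (at least -1.83 ± 0.30). None of the list was called against the other tumour groups, not far from the 4.19% over all probe sets in so short a list. Of 19 ion channel and neurotransmitter receptor genes 12 were higher and 3 lower (median 0.79), the AMPA receptor subunit Gria4 among the higher. The 3 lower were the metabotropic glutamate receptors Grm3 (at least -3.34 ± 0.25) and Grm5 (-2.30 ± 0.63) and the AMPA receptor subunit Gria1 (at least -1.70 ± 0.29), and Grm5 was not called without the G/tv-a NSC culture or mGC2_NES replicate 1. The kainate receptor subunit Grik1 differed from the other tumour groups by -0.60, a call lost in 7 of the 9 fits that left out 1 tumour array (-0.65 to -0.56).

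Contact and matrix genes were mixed. Of 20 integrin and adhesion genes 9 were lower and 3 higher than in NSC, with Itga7 (at least -3.77 ± 0.22) and Itgb5 (-3.26 ± 0.31) among the lower. Of 26 matrix genes 5 were higher and 6 lower, near the shares over all probe sets (16.6% higher and 18.2% lower). Sparc, a secreted matrix protein gene, read 13.01, 13.18 and 13.09 in mGC2_NES, 12.85 to 13.46 in NSC and 12.09 to 12.57 in the other tumour cultures, and it exceeded the other tumour groups by 0.69 ± 0.13 (limma adjusted p = 0.0162), lost without mGC2_NES replicate 2 or 3 (0.65 to 0.69). Of 22 axon guidance genes 12 were lower and 7 higher, with the netrin receptor Unc5c 3.92 ± 0.09 higher and the semaphorin receptor Nrp1 lower (at least -2.53 ± 0.23).

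Hypoxia and glycolysis genes were lower in 7 of 17 cases and higher in 1, the angiogenic factor Vegfa (1.10 ± 0.26), named after its value was seen. Of 13 p53 targets 7 were lower and 2 higher, with the death receptors Tnfrsf10b (at least -2.29 ± 0.25) and Fas (at least -1.24 ± 0.19) among the lower. Of 17 cholesterol and fatty acid synthesis genes 4 were higher and 2 lower, and Insig1, a sensor that holds back sterol synthesis, exceeded the other tumour groups by 0.33, a call lost without any 1 mGC2_NES array or mGC1_GFAP replicate 1 or 2 (0.31 to 0.35). Of 17 matrix protease and inhibitor genes 4 were higher and 6 lower, with the inhibitor Timp1 lower (at least -3.49 ± 0.30). Of 20 genes of neuroblasts and neurons 4 were higher and 5 lower. Over all probe sets 16.6% were called higher and 18.2% lower. The counts of the neuronal list, the cholesterol list and the cyclin list were not far from these shares. The cell cycle inhibitor and cyclin list had 2 of 11 higher and 2 lower, and 2 of 9 ligands of natural killer receptors were measured. Both, H60b (at least -1.70) and Raet1d (at least -1.64), were lower, with mGC2_NES means within the range of absent genes and list means of 7.14, 7.26 and 9.31 in the C/tv-a, N/tv-a and G/tv-a NSC cultures. The H60b call was lost without the G/tv-a NSC culture or mGC2_NES replicate 1 or 3 (-1.77 to -0.91), and that of Raet1d without the G/tv-a NSC culture or any 1 mGC2_NES array (-1.86 to -1.03).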
